A study of Homo sapiens with 4 samples.

Results

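The genes described here encode the proteins of the cytosolic ribosome. They were chosen by name, as protein-coding genes whose symbol is RPL or RPS followed by a number, together with *RPLP0*, *RPLP1*, *RPLP2* and *RPSA*, and without the RPS6K kinases. The rule found 86 of 57905 listed genes, 53 of the large (60S) subunit and 33 of the small (40S) subunit, spread over 22 chromosomes with 12 on chromosome 19. RNA was sequenced from U87MG, an established human glioblastoma cell line whose genotype is labelled wild type, in duplicate without treatment and in duplicate after 24 h with 50 nM chaetocin, a fungal metabolite dissolved in DMSO. The control cells are labelled as untreated, with no mention of DMSO. All 4 libraries come from this 1 line, and the sources used here do not say whether duplicates were separate cultures, so that p-values measure only the spread between these samples, which may be technical.

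A ribosome contains 1 copy of nearly every one of these proteins, and their mRNAs are among the most abundant of a dividing cell. Most of these mRNAs begin with a terminal oligopyrimidine (TOP) tract, a C followed by a run of C and T, through which mTORC1 and the RNA-binding protein LARP1 control their translation and stability. Several ribosomal proteins have a paralog that can take their place in the ribosome, and RPL5 and RPL11, bound to 5S rRNA, also restrain MDM2 and so stabilise p53.

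The start sites of the genes that the results below turn on are shown for the 4 members with the lowest fold changes (*RPL22L1*, *RPL34*, *RPS27*, *RPL24*) and for paralogs set against their parents. Each sequence is 15 bases before and 15 bases from the start annotated by RefSeq on GRCh38.p14, on the gene's strand. A TOP-like run is defined as a C followed by at least 4 letters that are each C or T. Capitals mark only the run that begins nearest the annotated start and within 5 bases of it. Other C and T stretches, also those just before a marked run, are left in lower case.
RPL22L1 (chr3:170870181-170870210, minus strand): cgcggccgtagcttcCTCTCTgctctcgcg
RPL22 (chr1:6199581-6199610, minus strand): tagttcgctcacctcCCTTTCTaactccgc
RPS27 (chr1:153990747-153990776, plus strand): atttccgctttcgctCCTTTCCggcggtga
RPS27L (chr15:63157463-63157492, minus strand): aagttgatgccgagcgcagatcgcttgcag
RPL26 (chr17:8383179-8383208, minus strand): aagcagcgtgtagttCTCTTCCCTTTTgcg
RPL26L1 (chr5:172958714-172958743, plus strand): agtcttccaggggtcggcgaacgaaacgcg
RPL34 (chr4:108620561-108620590, plus strand): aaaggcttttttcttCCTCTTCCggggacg
RPL24 (chr3:101686704-101686733, minus strand): ttcccatgattctctCTTTCTTTTCgccat

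The parents *RPS27* and *RPL26* held a run at their start, whereas no such run began within 5 bases of the start of their paralogs *RPS27L* and *RPL26L1*. *RPL22L1* and *RPL22* both held one. Promoter sequences matched 69 of the 86 members. A run starting within 5 bases of the start, on the strand of the gene, was present in 56 of the 69, or 81.2% (95% Wilson interval 70.4 to 88.7%), against 25.2% of 27305 genes with an entry. At the annotated start itself the shares were 69.6% of the members and 5.14% of all genes. Of the members tested below, the 55 with a run had a median log2 fold change of -0.22, and the 12 without one had a median of -0.24.

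The libraries held 21241984 to 32590479 counts, and levels are given as CPM, read counts brought to one library size with TMM factors. A count of 0 allows a level of up to 3 reads, which is 0.0921 to 0.141 CPM (counting error only, since PCR copies are not independent molecules). The ribosomal protein mRNAs were deeply covered, with over 1000 reads in every library for 73 members. *VIM* and *CD44* were abundant, *CDKN2A* and *CDKN2B*, which U87MG has lost, had 0 reads in all 4 libraries, and the astrocyte marker *S100B* and the stem cell marker *SOX2* had 0 reads in both controls, against 2 reads of *S100B* in each chaetocin library and 2 and 5 reads of *SOX2*. The leukocyte list summed to 0.463 and 0.56 CPM in the controls and to 2.68 and 3.34 CPM after chaetocin, with *CD3E* at 0 throughout. *PTPRC* had 0 and 1 reads in the controls and 15 and 27 after chaetocin (adjusted p = 0.0412, edgeR), *ITGAM* 0 and 1 against 24 and 29 reads (adjusted p = 0.0341, edgeR), and *CD14* and *CD68* were higher in both chaetocin libraries without passing the test. The 4 epithelial markers summed to 2.51 and 2.14 CPM in the controls and to 4.57 and 4.27 CPM after chaetocin, and the 4 erythroid markers were at 0 throughout. The 8 U87MG markers summed to 5440 and 4780 CPM in the controls, 3460 CPM in chaetocin 1 and 2330 CPM in chaetocin 2, so that chaetocin 2 was lowest. *VIM* and *CD44* had log2 fold changes of -0.80 (adjusted p = 0.134, edgeR) and -1.20 (adjusted p = 0.0699, edgeR). The part of these marker signals in the ribosomal protein values was not tested.

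The duplicates differed in the measure of interest, and the main results below are therefore also given for each library. Ribosomal protein genes took 2.38 and 2.19% of the counts in control 1 and control 2, 2.46% in chaetocin 1 and 1.88% in chaetocin 2. Chaetocin 1 thus lay above both controls and chaetocin 2 below both, and the group difference of -0.12 percentage points was smaller than the spread between samples (SD 0.30, n = 2 per group). Without chaetocin 2 the difference was 0.17, and without chaetocin 1 it was -0.41 percentage points. Mitochondrial transcripts took 4.12% of the counts in chaetocin 2, against 3.28% in chaetocin 1 and 3.62 and 3.58% in the controls, and the part of this in the ribosomal protein values was not tested.

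To ask whether chaetocin changed the mRNA of single ribosomal proteins, each gene was tested across all genes with edgeR's quasi-likelihood test. Of the 86 members, 82 had enough reads to be tested, 51 of the large and 31 of the small subunit. None was called higher or lower at an adjusted p under 0.05 (Benjamini-Hochberg), where 1.11% of all genes tested were called higher and 0.743% lower. At an unadjusted p under 0.05, 10 members were lower and 0 were higher, against 9.43% of all genes lower and 10.9% higher. DESeq2's Wald test with Benjamini-Hochberg adjustment called 4 members lower (*RPL22L1*, *RPL34*, *RPS27* and *RPL24*) and 0 higher, where it called 2.93% of all genes lower and 2.35% higher. In edgeR the same 4 were called lower with no filter on low counts, where 2.39% of all genes were, and with a correction for transcript length, where 0.749% were.

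Although none of the members passed that test, the fold change was negative in most of them. The log2 fold change was below 0 in 75 of the 82 members tested (91.5%, against 49.1% of all 16416 genes tested), with a median of -0.24, quartiles of -0.36 and -0.09, and a range from -1.08 to 0.47, whereas the median over all genes was 0.01. These values depend on the scaling. The TMM factors were 0.942 and 0.948 in the controls, 1.03 in chaetocin 1 and 1.09 in chaetocin 2, and a higher factor lowers the CPM. Scaling by the upper quartile moved the median of all genes to 0.09 and that of the members to -0.16, with 65 members below 0. In 37 members (45.1%) both chaetocin libraries lay below both controls, against 26.0% of all genes, and in 2 members (*RPL39L* and *RPS10*) both lay above, against 26.8% of all genes. As the RNA came from whole cultures, less mRNA per cell and fewer cells that express a gene cannot be told apart.

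**Figure D1:**
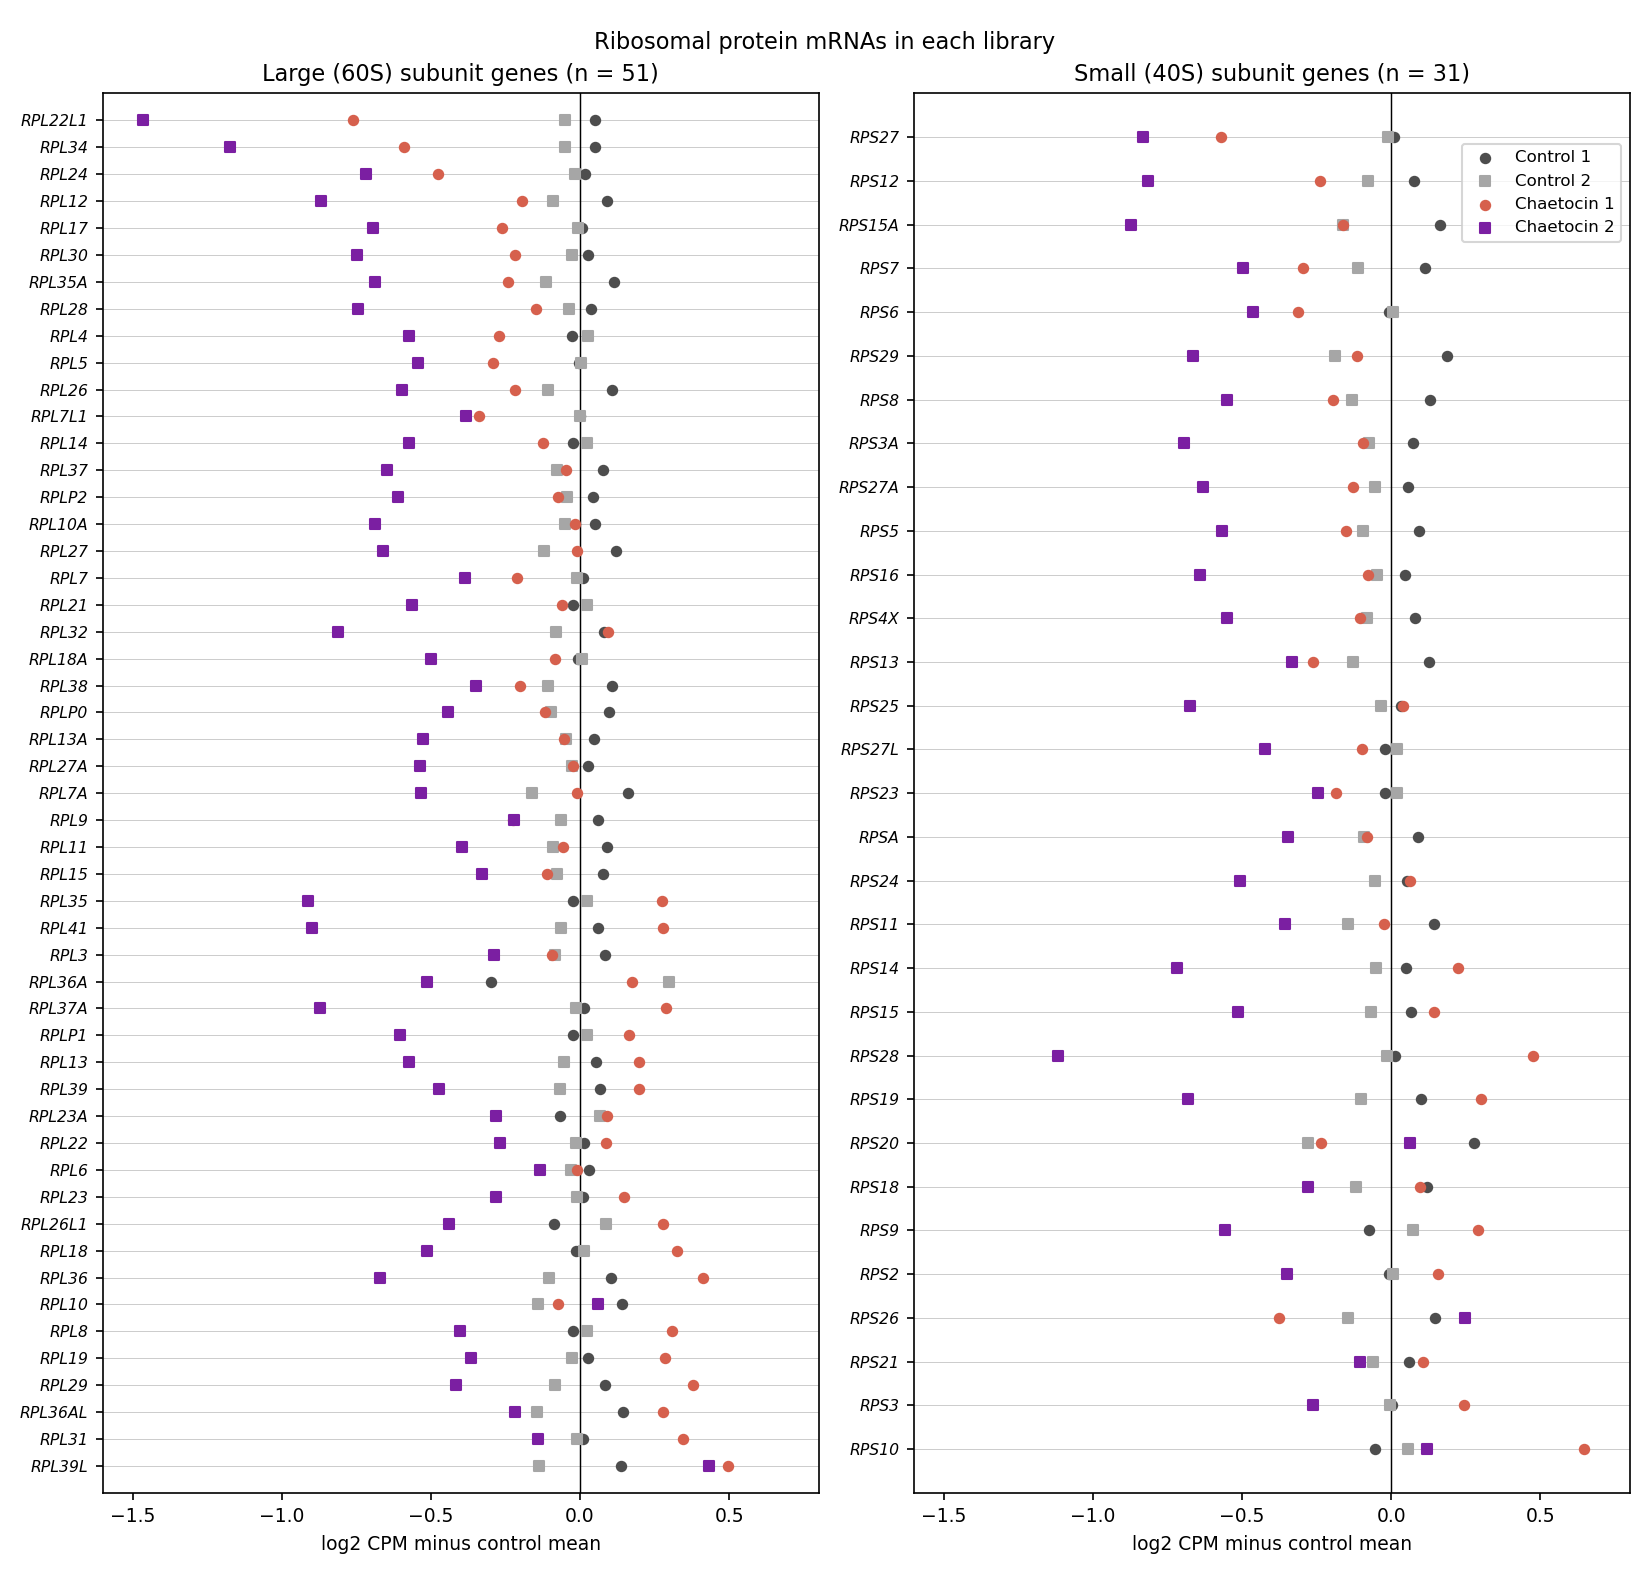
Each line is 1 ribosomal protein gene of the 60S (left, 51 genes) or 40S subunit (right, 31 genes), sorted by fold change, and each point is the log2 CPM of 1 library minus the mean of the 2 controls. Chaetocin 2 (purple squares) lies below both controls in 77 of the 82 genes, whereas chaetocin 1 (orange circles) lies below both in 38 and above both in 30. Of all 16416 genes tested, 6714 lie below both controls in chaetocin 2. In chaetocin 1, 6535 of them lie below both and 6722 above both.

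The shift was mainly in chaetocin 2. Relative to the mean of the controls, the median over the 82 members was -0.06 on the log2 scale in chaetocin 1 and -0.53 in chaetocin 2, while the controls themselves lay at 0.05 and -0.05 and the median over all genes was 0.01 in both chaetocin libraries. Chaetocin 2 was below both controls in 77 members and above both in 3, against 6714 and 6753 of all 16416 genes tested. In chaetocin 1, 38 members were below both controls and 30 were above both, against 6535 and 6722 of all genes. The level was lower in chaetocin 2 than in chaetocin 1 in 78 of 82 members, against 8170 of all 16416 genes tested. The exceptions among the members were *RPL9*, *RPL10*, *RPS20* and *RPS26*. The absolute log2 difference between the chaetocin duplicates had a median of 0.51 over the members and 0.28 over all genes, and that between the controls 0.12 and 0.18. In 62 of 82 members the gap between the chaetocin duplicates was larger than the fold change itself.

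Leaving out each chaetocin library in turn, with the lone library assumed to vary like the controls, gave 2 different pictures. Without chaetocin 1, edgeR called 49 of 83 members tested lower (9.48% of all genes tested) with a median log2 fold change of -0.54. Without chaetocin 2, it called 4 members lower, where 5.59% of all genes were called, with a median of -0.07. These 4 were again *RPL22L1*, *RPL34*, *RPS27* and *RPL24*, and 1 member, *RPS28*, was called higher, where 4.23% of all genes were. *RPL22L1* was the 1 member called lower without control 1, where 0.538% of all genes were, and again without control 2, where 0.868% were.

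The large and the small subunit had similar medians. The median log2 fold change was -0.26 over the 51 genes of the large subunit, of which 47 were below 0, and -0.22 over the 31 genes of the small subunit, of which 28 were below 0. Both subunits showed the same gap between the duplicates. The large subunit had medians of -0.05 in chaetocin 1 and -0.53 in chaetocin 2, and the small subunit of -0.09 and -0.52. As shares of all counts, the large subunit took 1.31, 1.24, 1.40 and 1.05% in control 1, control 2, chaetocin 1 and chaetocin 2, and the small subunit took 1.07, 0.958, 1.06 and 0.831%.

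Within the large subunit, *RPL22L1* had the lowest fold change. It encodes a paralog of RPL22, an RNA-binding protein of the 60S surface, and is annotated on chromosome 3 (170864875 to 170870483, minus strand, GRCh38, ENSG00000163584). Its level was 97.4 and 90.8 CPM in the controls, 55.5 CPM in chaetocin 1 and 34.0 CPM in chaetocin 2. Both chaetocin libraries were below both controls. Untreated cells averaged 94.1 ± 4.62 CPM and treated cells 44.8 ± 15.2 CPM (SD, n = 2). The log2 fold change was -1.08 (SE 0.22, adjusted p = 0.0528 in edgeR's quasi-likelihood test). Among 14 alternative settings its log2 fold change ranged from -1.46 to -0.77, and 8 of them called it, with adjusted p between 1.65e-07 without a filter on low counts and 0.0647 with a correction for GC content. *RPL22L1* was also the only member called in all 4 fits that left out 1 library.

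*RPL34*, a protein of the solvent side of the 60S subunit, was next (chromosome 4, 108620566 to 108630412, plus strand, ENSG00000109475). It was measured at 168 and 157 CPM in the controls and at 108 and 72.0 CPM after chaetocin, so that the groups did not overlap. The log2 fold change was -0.86 (SE 0.20, adjusted p = 0.0697, edgeR). *RPL24*, which reaches from the 60S across to the small subunit, is also on chromosome 3 (101681091 to 101686782, minus strand, ENSG00000114391). Its controls, at 277 and 271 CPM, lay close together and above both chaetocin libraries, at 197 and 167 CPM. The log2 fold change was -0.59 (SE 0.16, adjusted p = 0.0909, edgeR). *RPL34* and *RPL24* were each called in 6 of the 14 alternatives, with log2 fold changes from -1.17 to -0.60 and from -0.71 to -0.48.

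In the small subunit *RPS27*, a zinc finger protein of the 40S platform, had the lowest fold change (chromosome 1, 153990755 to 153992155, plus strand, ENSG00000177954). It was at 53.1 and 52.3 CPM in the controls and at 35.4 and 29.5 CPM after chaetocin, without overlap. The log2 fold change was -0.70 (SE 0.16, adjusted p = 0.0649, edgeR), and 6 of 14 alternatives called it, with a range from -0.86 to -0.58. *RPS12*, a protein of the 40S beak, followed with 767 and 688 CPM in the controls, 615 CPM in chaetocin 1 and 413 CPM in chaetocin 2 (log2 fold change -0.50, SE 0.22, adjusted p = 0.249, edgeR). *RPL12*, at the base of the 60S stalk, had a similar value, at 132 and 116 CPM in the controls and 108 and 67.9 CPM after chaetocin (log2 fold change -0.50, SE 0.22, adjusted p = 0.248, edgeR). For both genes chaetocin 1 lay just under the lower control and chaetocin 2 far under it.

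**Figure D2:**
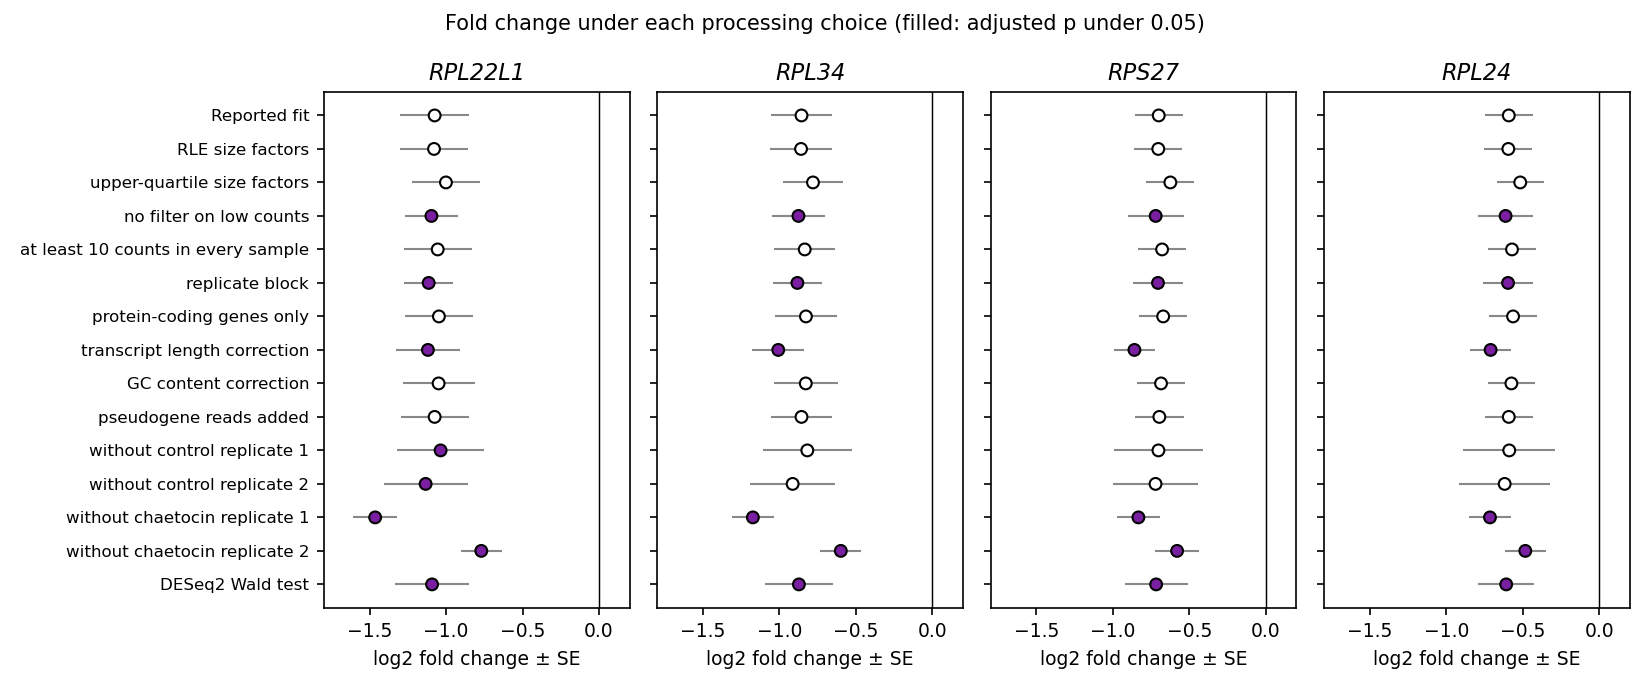
Log2 fold change (chaetocin minus control, horizontal axis, bars are SE) of the members *RPL22L1*, *RPL34*, *RPS27* and *RPL24*, under the reported fit and each of 14 alternatives. Filled circles mark an adjusted p under 0.05: 8 alternatives for RPL22L1 and 6 for each of RPL34, RPS27 and RPL24, and every value lies below 0.

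At the other end, the highest fold changes belonged to members with few reads. *RPL39L*, a paralog of RPL39 best known from testis, was at 4.38 and 3.62 CPM in the controls and at 5.65 and 5.40 CPM after chaetocin. These levels rest on 104 to 192 reads per library, and the log2 fold change of 0.47 did not pass the test (SE 0.25, adjusted p = 0.334, edgeR). *RPS10*, of the 40S head, had only 29 and 37 reads in the controls and 43 and 48 after chaetocin (1.19, 1.29, 1.98 and 1.35 CPM, log2 fold change 0.41, SE 0.38, adjusted p = 0.597, edgeR). The next were *RPL31* at the rim of the exit tunnel (0.12), *RPL36AL* (0.04), *RPL29* (0.03) and *RPS3* at the mRNA entry channel (0.01), in each of which chaetocin 1 was above both controls and chaetocin 2 below both, and the last 3 of which were below 0 with the transcript length correction. *RPL31*, for example, was at 311 and 307 CPM in the controls, 392 CPM in chaetocin 1 and 280 CPM in chaetocin 2.

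Other well-studied members had log2 fold changes below 0 of smaller size, and the groups overlapped in some of them. *RPL5* and *RPL11*, which carry 5S rRNA, had log2 fold changes of -0.41 (SE 0.15, adjusted p = 0.187, edgeR) and -0.22 (SE 0.17, adjusted p = 0.516, edgeR). *RPL5* was at 196 and 198 CPM in the controls and at 161 and 135 CPM after chaetocin, without overlap. *RPL11* was at 243 and 214 CPM in the controls and at 219 and 173 CPM after chaetocin, so that chaetocin 1 lay between the controls. The stalk, on which elongation factors dock, consists of RPLP0 and the P1 and P2 proteins. *RPLP0* was at 665 and 580 CPM in the controls and 572 and 457 CPM after chaetocin, *RPLP2* at 679 and 641 against 627 and 432 CPM, and *RPLP1* at 307 and 318 against 349 and 205 CPM. The log2 fold changes were -0.27, -0.32 and -0.17, and only *RPLP1* overlapped, since its chaetocin 1 value was the highest of the 4.

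*RPL4*, which lines the exit tunnel, was at 624 and 647 CPM in the controls and at 527 and 427 CPM after chaetocin (log2 fold change -0.41, SE 0.18, adjusted p = 0.243, edgeR). *RPS6*, the substrate of the S6 kinases, was at 424 and 428 CPM in the controls and at 343 and 309 CPM after chaetocin (log2 fold change -0.39, SE 0.16, adjusted p = 0.226, edgeR). Neither gene overlapped between groups. *RPL3*, near the peptidyl transferase centre, was at 1507 and 1341 CPM in the controls, and its chaetocin libraries, at 1333 and 1163 CPM, lay just below (log2 fold change -0.19). *RPSA* (-0.21) and *RPS2* (-0.07) of the small subunit overlapped between groups. In *RPS2* chaetocin 1, at 308 CPM, was above the controls at 274 and 277 CPM, and chaetocin 2, at 216 CPM, was below them.

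The members that separated the chaetocin duplicates most were picked after their values were seen. *RPS28*, a 40S protein near the mRNA exit channel, was at 277 and 272 CPM in the controls, at 382 CPM in chaetocin 1 and at 127 CPM in chaetocin 2. Chaetocin 1 was above and chaetocin 2 below both controls, with 1.59 log2 units between them. *RPL35*, *RPL41*, *RPL37A* and *RPL36* of the large subunit showed the same arrangement, with gaps of 1.19, 1.18, 1.16 and 1.08 log2 units, and these 5 were the members in which chaetocin 1 exceeded chaetocin 2 by more than 1 log2 unit. The largest gap in the opposite direction was in *RPS26*, another protein of that channel, with 153 and 125 CPM in the controls, 107 CPM in chaetocin 1 and 164 CPM in chaetocin 2. *RPS20*, of the 40S head, also had more in chaetocin 2 (484 CPM) than in chaetocin 1 (394 CPM), but its controls, at 562 and 382 CPM, were further apart.

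Levels between genes were compared per kilobase of the annotated transcript. In the controls the highest were *RPS4X*, the X-linked gene of a 40S protein, at 1173 CPM per kb, *RPS12* at 1153, *RPS16* at 1130, *RPL23* at 1100 and *RPLP2* at 1036 CPM per kb. After chaetocin these levels were 944, 814, 898, 1062 and 831 CPM per kb, so that *RPL23* came first. The first 3 in the controls differed from their neighbours in this order by less than the SD of their own duplicates. *RPS4X* was at 1890 and 1690 CPM in the controls and at 1663 and 1219 CPM after chaetocin, and *RPL23* at 693 and 683 CPM against 762 and 566 CPM. The lowest levels per kilobase in the controls were those of *RPS10* (2.10 CPM per kb), *RPS27L* (4.57) and *RPL39L* (6.13). The whole order depends on the annotated transcript used for each gene, with a median of 710.5 bases over the members tested. That transcript was 6434 bases for *RPS27L*, 7686 for *RPL37* and 3647 for *RPL37A*. *RPL37A*, at 611 and 600 CPM in the controls, thus had only 166 CPM per kb.

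The ratio of a paralog to its parent within a library does not depend on library size. Of the 8 pairs, 6 had enough reads. Each ratio was compared with an exact two-sided permutation test, in which 2 samples against 2 cannot go below p = 0.333. The ratio of *RPL22L1* to *RPL22* was 0.31 and 0.24 on the log2 scale in the controls, -0.57 in chaetocin 1 and -0.92 in chaetocin 2. In linear terms, *RPL22L1* went from 1.21 times the CPM of *RPL22* to 0.597 times (log2 difference -1.02, exact p = 0.333, adjusted over the 6 ratios 0.667). *RPL22* itself was at 78.3 and 76.7 CPM in the controls and at 82.3 and 64.4 CPM after chaetocin, and its log2 fold change of -0.08 did not pass the test (adjusted p = 0.828, edgeR).

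The ratio of *RPS27L*, a p53-responsive paralog, to *RPS27* moved the other way in both chaetocin libraries. It was -0.87 and -0.81 on the log2 scale in the controls and -0.37 and -0.43 after chaetocin, a difference of 0.44 with non-overlapping groups (exact permutation p = 0.333, adjusted 0.667). *RPS27L* mRNA was at 28.97 and 29.8 CPM in the controls and at 27.5 and 21.9 CPM after chaetocin, so that the higher ratio went with lower levels of both mRNAs. The ratio of *RPL39L* to *RPL39* was -5.43 and -5.57 in the controls and -5.20 and -4.60 after chaetocin, a difference of 0.60 (exact permutation p = 0.333, adjusted 0.667), with *RPL39* at 193 and 175 CPM in the controls and 211 and 133 CPM after chaetocin.

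In the 3 other pairs the groups overlapped. The log2 ratio of *RPL7L1* to *RPL7* differed by -0.06, that of *RPL26L1* to *RPL26* by 0.33 and that of *RPL36AL* to *RPL36A* by 0.20 (exact permutation p = 0.667, 0.667 and 1.0). *RPL7L1*, which acts in ribosome assembly, and *RPL7*, of the mature 60S, had log2 fold changes of -0.36 (SE 0.14, adjusted p = 0.193, edgeR) and -0.30 (SE 0.15, adjusted p = 0.306, edgeR), with *RPL7L1* at 124 and 124 CPM in the controls and 97.9 and 95.03 CPM after chaetocin. The chaetocin duplicates of *RPL7L1* lay close together and below both controls. *RPL26L1* was at 34.4 and 38.9 CPM in the controls and 44.4 and 27.0 CPM after chaetocin, and *RPL26* at 68.3 and 59.0 against 54.6 and 42.0 CPM.

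**Figure D3:**
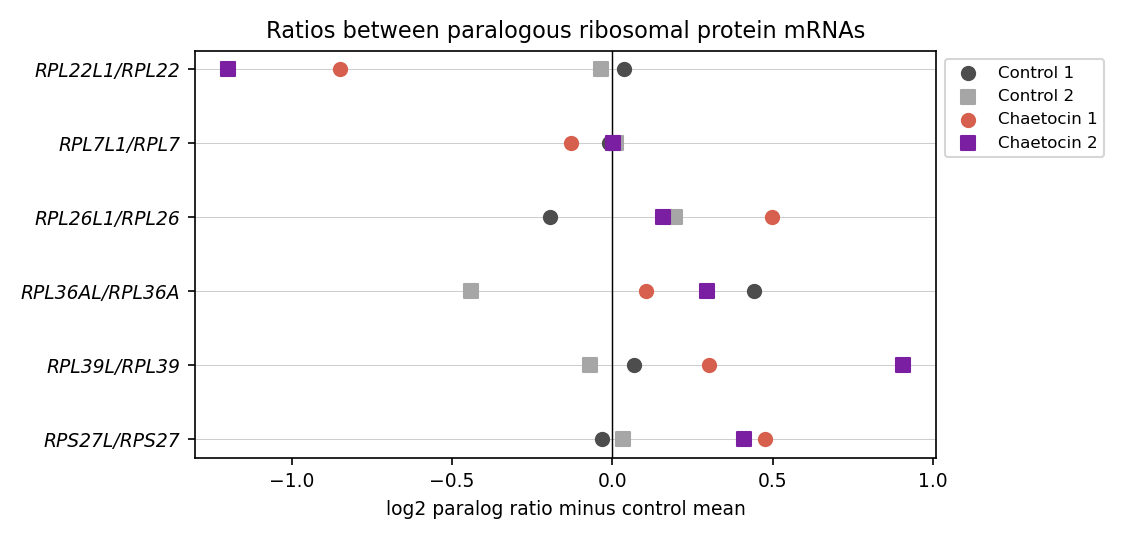
Log2 ratio of each paralog to its parent in each library, minus the mean of the 2 controls (horizontal axis), for the 6 pairs with enough reads. Both chaetocin libraries lie to the left of both controls for RPL22L1/RPL22 and to the right for RPS27L/RPS27 and RPL39L/RPL39, and the groups overlap for the other pairs.

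**Figure D4:**
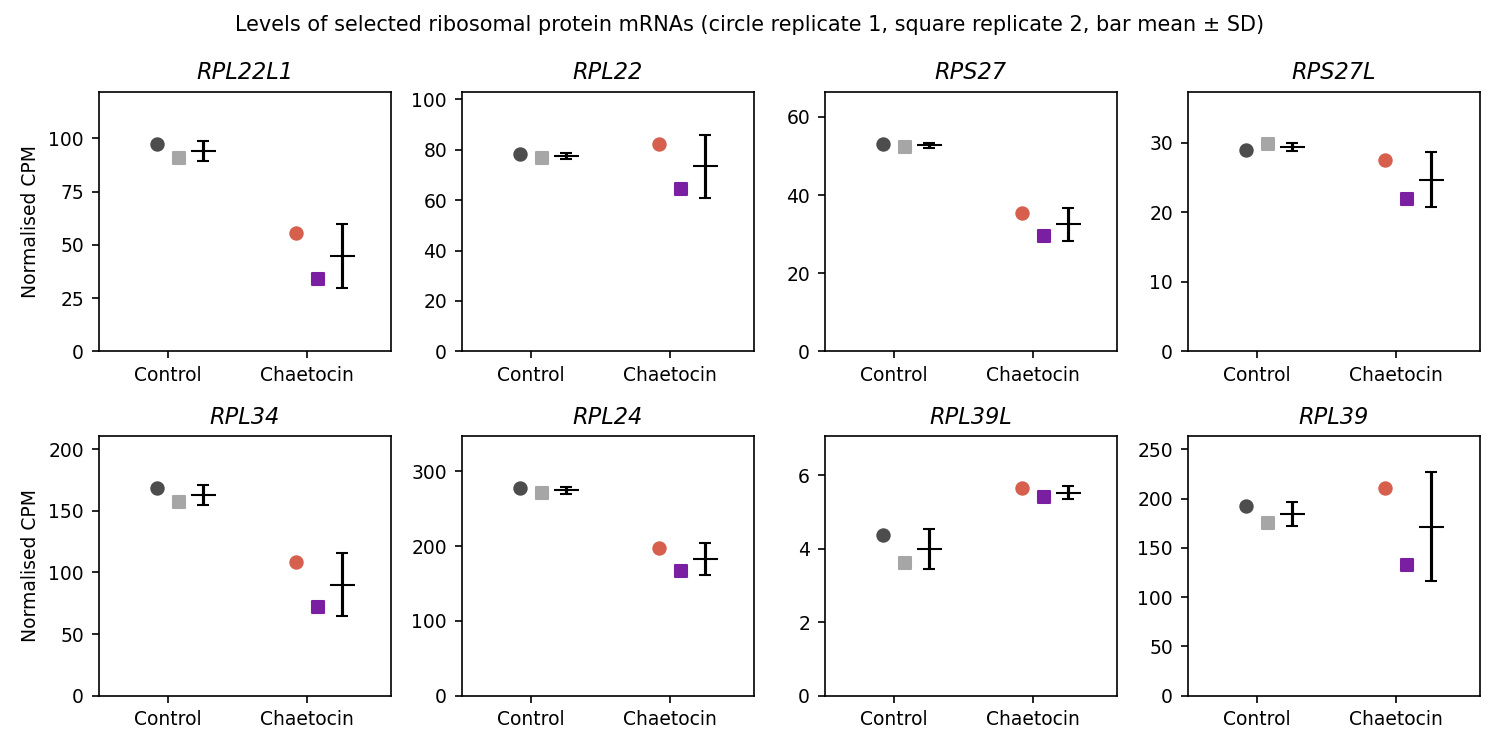
Normalised CPM (vertical axis, from 0) of RPL22L1, RPS27 and RPL39L beside their parents or paralogs RPL22, RPS27L and RPL39, and of RPL34 and RPL24, with 1 point per library and bars for the mean ± SD of each group (n = 2). RPL22L1, RPL34, RPS27 and RPL24 are lower in both chaetocin libraries, whereas the chaetocin duplicates of RPL22 and RPL39 lie on either side of the controls.

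Untested members had almost no reads. *RPL10L*, a retrogene paralog of *RPL10*, had 0 reads in all 4 libraries, which allows up to 0.0921 to 0.141 CPM. *RPL3L*, the muscle paralog of *RPL3*, had 0 and 9 reads in the controls and 2 and 23 reads after chaetocin. Their parents were abundant, *RPL10*, which completes the 60S before subunits join, at 355 and 291 CPM in the controls and at 305 and 335 CPM after chaetocin. No values are given for the Y-linked *RPS4Y1*.

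Some low counts concerned genes whose exons are shared with read-through genes on the same strand. *RPS10* shares 39.4% of its exon bases with *RPS10-NUDT3*, *RPL17* 24.8% with *RPL17-C18orf32*, and *RPL36A* 8.4% with *RPL36A-HNRNPH2*. These read-through genes had 0 reads in every library, and *RPL17* had 150 to 237 and *RPL36A* 108 to 193 reads per library. How reads that fit several genes were counted is not given in the sources used here, so that the levels of these 3 members and of members with processed copies are uncertain. Of 1136 annotated pseudogenes of the members, 499 had a read, and their reads came to 1.19 and 1.17% of the reads on members and pseudogenes together in the controls, 1.15% in chaetocin 1 and 1.71% in chaetocin 2. *RPL22L1* has no such pseudogene. Those of *RPL34* had 0 to 6 reads per library, those of *RPS27* 0 to 4 and those of *RPL24* 3 to 15.

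Of the members, 28 carry snoRNA genes within them, 58 in all. The median log2 fold change was -0.28 over these 28, of which 27 were below 0, and -0.22 over the 54 other members tested, of which 48 were below 0. The 28 again showed the gap between duplicates, with medians of -0.07 in chaetocin 1 and -0.54 in chaetocin 2.

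The wider translation machinery was read from lists of related genes, with 0 genes called by edgeR in any of them. DESeq2 called 1 gene of ribosome biogenesis, 1 translation factor and 2 mitochondrial ribosomal proteins, and 0 in the other lists, where it called 5.28% of all genes. Ribosomal proteins named otherwise included *RACK1*, a signalling scaffold of the 40S head, and *FAU*, which encodes a 40S protein fused to a ubiquitin-like protein. Both had log2 fold changes below 0, at -0.43 (adjusted p = 0.273, edgeR) and -0.18 (adjusted p = 0.682, edgeR), and neither had an unadjusted p under 0.05. *RACK1* was at 1478 and 1145 CPM in the controls and at 971 and 976 CPM after chaetocin. Its chaetocin duplicates were nearly equal and below both controls.

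Translation initiation and elongation factors had a median log2 fold change of -0.20 over 54 genes tested, of which 44 were below 0. At an unadjusted p under 0.05, 6 of the 54 were lower and 1 was higher, against 9.43 and 10.9% of all genes. The lowest was *EIF4G1*, the scaffold of the cap-binding complex, at 945 and 1077 CPM in the controls and 727 and 615 CPM after chaetocin (log2 fold change -0.59, SE 0.19, adjusted p = 0.134, edgeR). The subunit *EIF3E* of the factor that holds mRNA on the 40S was next (-0.49, adjusted p = 0.165, edgeR). The median of these factors was -0.07 in chaetocin 1 and -0.34 in chaetocin 2, a smaller gap than that of the ribosomal proteins.

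Factors of ribosome assembly were closer to the controls. The ribosome biogenesis list had a median of -0.08 over 134 genes, with 92 below 0 (-0.02 in chaetocin 1 and -0.17 in chaetocin 2), and at an unadjusted p under 0.05 10 were lower and 2 higher, against 9.43 and 10.9% of all genes. *DDX21*, a nucleolar helicase, was at 256 and 331 CPM in the controls and 217 and 179 CPM after chaetocin (log2 fold change -0.57, adjusted p = 0.142, edgeR). *RMRP*, the RNA of a rRNA-processing ribonuclease, had 8 and 40 reads in the controls and 1 and 12 after chaetocin, with overlapping groups. RNA polymerase I subunits and factors had a median of -0.06 over 20 genes, with 12 below 0 (-0.03 in chaetocin 1 and -0.14 in chaetocin 2) and 0 at an unadjusted p under 0.05, and the lowest were *TAF1D* (-0.39) and *TWISTNB* (-0.36).

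Mitochondrial ribosomal proteins, which come from nuclear genes but build another ribosome, had a median of -0.09 over 75 genes, 51 of them below 0. Their medians were 0.01 in chaetocin 1 and -0.19 in chaetocin 2, and 2 were lower and 2 higher at an unadjusted p under 0.05, against 9.43 and 10.9% of all genes. *MRPS6* was at 68.2 and 47.5 CPM in the controls and 32.5 and 22.1 CPM after chaetocin (log2 fold change -1.09, SE 0.24, adjusted p = 0.0594, edgeR). *MRPL53* was at 5.33 and 4.73 CPM in the controls and 10.4 and 8.95 CPM after chaetocin (log2 fold change 0.94, SE 0.22, adjusted p = 0.0719, edgeR). In both genes the groups did not overlap.

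The mTORC1 and LARP1 list, which holds the regulators of TOP mRNAs, had a median of -0.09 over 20 genes, with 13 below 0, and at an unadjusted p under 0.05 1 was lower and 1 higher, against 9.43 and 10.9% of all genes. Its largest changes were in the inhibitors of cap binding *EIF4EBP2*, at 68.6 and 73.4 CPM in the controls and 84.6 and 116 CPM after chaetocin (log2 fold change 0.50, SE 0.18, adjusted p = 0.172, edgeR), and *EIF4EBP1*, at 49.5 and 40.5 CPM against 46.3 and 21.7 CPM (-0.41, adjusted p = 0.506, edgeR). Unlike the ribosomal proteins, this list had a lower median in chaetocin 1 (-0.10) than in chaetocin 2 (-0.01), and that difference between lists was not tested.

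**Figure D5:**
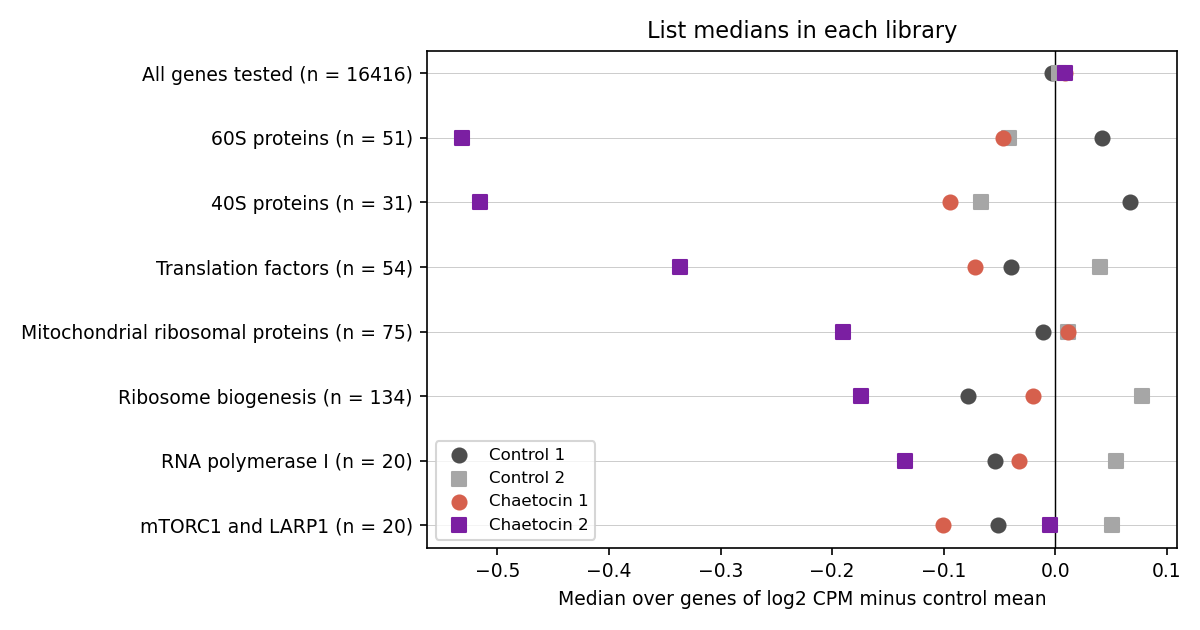
Median over the genes of each list of log2 CPM minus the control mean (horizontal axis), with 1 point per library. The 60S and 40S proteins have the lowest chaetocin 2 medians (-0.53 and -0.52) while their chaetocin 1 medians (-0.05 and -0.09) are near those of the controls, and the medians of all 16416 genes lie at about 0 in every library.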

How the data were processed

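For each of 2 untreated and 2 chaetocin-treated U87MG samples the authors deposited a table of raw counts by gene, from polyadenylated RNA sequenced as single-end reads. The submitters' processing notes name GRCh37, cutadapt, TopHat2 and SAMtools, the counting tool is not given in the sources used here, and the paper's methods name DESeq2. Of 57905 Ensembl identifiers, 52338 had a symbol in GENCODE v29, whose GRCh38 positions were looked up by identifier and not converted.

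Counts were filtered with filterByExpr (minimum count 10), scaled by TMM and tested with the quasi-likelihood test of edgeR 4.0.16 (robust fit, treatment alone) in R 4.3.3, after the script was tested on simulated data. The filter kept 16416 genes, and p-values were adjusted over all of them by the Benjamini-Hochberg method. CPM are scaled by TMM. DESeq2 1.42.0, other scalings and filters, length and GC corrections, added pseudogene reads, a replicate block and leaving out each library were alternatives. The biological coefficient of variation was 16.8%.

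Named genes are the 6 highest and 6 lowest members, the paralog pairs, fixed well-known members, the 5 highest per kilobase, and of each list at most 4 called genes and the 2 with the largest changes. *RPS28*, *RPL35*, *RPL41*, *RPL37A*, *RPL36*, *RPS26*, *RPS20* and *RPL9* were added after their values were seen. Members and lists were chosen with earlier results of these data known. Some named genes are not reported here.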

Additional observations from a re-analysis of the deposited data

How the results depend on the processing

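The median over members, and those of the large and small subunit, stayed below 0 under every alternative run, and without 1 library they ranged from -0.535 to -0.069, -0.537 to -0.057 and -0.515 to -0.103. The count of members called lower, 0 as reported, was 4 with no filter on low counts, 4 with the length correction, 4 by DESeq2 and 10 at an unadjusted p under 0.05. It ranged from 1 to 49 without 1 library, and the count called higher from 0 to 1. Replicate numbers mark no shared batch in the labels, and the log2 differences of same-numbered samples correlated with r = 0.123 across genes. The replicate block called 7 members lower, adding *RPL12*, *RPL30* and *RPL35A* (6.41% of all genes lower).

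Without 1 library, calls ranged from 0 to 17 among ribosome biogenesis genes, 0 to 15 translation factors, 0 to 12 mitochondrial ribosomal proteins, 0 to 4 mTORC1 and LARP1 genes, 0 to 2 RNA polymerase I genes and 0 to 2 ribosomal proteins outside the rule, where the share of all genes called was 1.74% without control 1, 2.1% without control 2, 17.0% without chaetocin 1 and 9.82% without chaetocin 2. With no filter, the block and DESeq2 (4.88, 12.7 and 5.28% of all genes) the calls were 4, 6 and 1 for biogenesis and 1, 3 and 1 for translation factors. For mitochondrial proteins they were 2, 2 and 2, and 1 with the length correction, which called 1.97% of all genes. The block called 1 mTORC1 and LARP1 gene.

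Fold changes near 0 changed sign. *RPL36AL* was -0.069 with the length correction. *RPL29* was -0.019 with the block and -0.109 with the length correction. *RPS3* was -0.008 with no filter, -0.009 with the block, -0.087 with the length correction and -0.004 by DESeq2. With upper-quartile scaling *RPL26L1* was 0.032, *RPS2* 0.001, *RPL23* 0.024 and *RPL10* 0.064, and *RPL10* was 0.011 with at least 10 counts and 0.017 with protein-coding genes. Without 1 library, the fold change ranged for *RPL31* from -0.138 to 0.336, *RPL36AL* -0.222 to 0.265, *RPL29* -0.417 to 0.369, *RPS3* -0.260 to 0.238, *RPL26L1* -0.439 to 0.268, *RPL22* -0.265 to 0.080, *RPL36A* -0.553 to 0.150, *RPL39* -0.471 to 0.188, *RPL10* -0.157 to 0.124, *RPLP1* -0.602 to 0.155, *RPS2* -0.346 to 0.150 and *RPL23* -0.280 to 0.140. The log2 ratio difference ranged from -0.130 to 0.001 for *RPL7L1* to *RPL7* and from -0.241 to 0.639 for *RPL36AL* to *RPL36A*. It ranged from 0.132 to 0.521 for *RPL26L1* to *RPL26* and from 0.30 to 0.905 for *RPL39L* to *RPL39*. The cause was not tested. With 2 samples per group, the gap between the chaetocin duplicates exceeded the fold change in 62 of 82 members, and depth limits *RPS10* and *RPL39L*, which had 29 to 192 reads per library.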

Other observations

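Of the 32 pseudogenes of ribosomal protein genes with enough reads, 1 was called higher and 0 lower by edgeR's quasi-likelihood test. The shares of all genes tested were 1.11% higher and 0.743% lower. *RPLP0P2*, a processed copy of *RPLP0*, had 72 and 68 reads in the controls and 328 and 876 reads after chaetocin, a log2 fold change of 2.91 (SE 0.30, adjusted p = 0.012), while its parent had a log2 fold change of -0.27. Whether these reads came from the copy itself was not tested. The lowest was *RPL18AP7*, with 17 and 16 reads in the controls and 3 and 7 after chaetocin (log2 fold change -1.83, adjusted p = 0.147, edgeR).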
